A study of Mus musculus with 16 samples.

Results

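A set of 10 genes was followed in the uterus after 6 h of 17β-estradiol (E2): the FoxO factors Foxo1, Foxo3 and Foxo4, together with Pik3ip1, Sesn1, Sesn3, Cited2, Tob1, Bcl6 and Zbtb16, which restrain growth signalling, proliferation or transcription. They were picked by name as FoxO and growth-restraining genes, in part for their fall with E2 on these same arrays, so their E2 change is given below as a description with no test. All 10 were found on the array by gene name, through 16 of its 55681 non-control probes, and all 10 were among the 25863 genes tested. The values go against a common fall: Tob1 was higher after E2 in both genotypes, Bcl6 was somewhat higher, and Foxo1 differed little. Foxo3 was lower by 0.64 log2 units in WT on its brighter probe, but differed little in Arg260 and on its other probe. The genes are therefore called here FoxO and growth-restraining genes.

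RNA from whole uteri was hybridised to 16 one-colour Agilent arrays, 4 per group. The groups were Arg260 mice given 8 µg/kg E2, Arg260 mice given vehicle (PLB, 0 µg/kg), WT mice given 8 µg/kg E2 and WT mice given PLB. All were ovariectomised at 4 weeks of age, kept on normal chow for 2 to 3 weeks, and injected under the skin with castor oil with or without E2 6 h before sampling. Arg260 is an allele of estrogen receptor α (ERα), and the substitution it carries is not given in the sources used here. Whether the 4 uteri of a group were taken from 4 animals is not stated in the labels, so p-values measure the spread between these samples, which may be technical.

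Between 61.6% and 70.6% of the 59305 non-control spots per array were well above background, and none (0) was saturated. Precision is set mainly by having 4 arrays a group. All 10 epithelial, 10 stromal and 8 smooth muscle marker genes of the uterus were well above background on all arrays of every group. Pgr, a progesterone receptor gene induced by E2 in this organ, was higher by 2.37 ± 0.197 log2 units in Arg260 and by 2.12 ± 0.197 in WT (± SE, limma, adjusted p = 8.02e-08 in Arg260 and 2.62e-07 in WT). No probe was taken as a check of the Arg260 allele. Of the PLB arrays, Arg260 PLB replicate 3 and WT PLB replicate 2 lay farthest apart on the second principal component (-60.0 and 68.7), which held 5.12% of the variance against 71.7% on the first.

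FoxO proteins are transcription factors that hold cells out of the cycle and turn on genes for stress resistance and cell death. When growth factors activate PI3K, its product activates Akt, which phosphorylates FoxO factors and keeps them out of the nucleus. Estrogen drives the uterine epithelium of an ovariectomised mouse from rest into the cell cycle, and the arginine of human ERα after which the allele is named is methylated by PRMT1 on receptor found with PI3K and Src.

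The probe for Cited2 was read from the array files, which place it on mouse build mm9 at chr10:17444502-17444561, plus strand. It is shown because it ends in an in-frame stop codon, in capitals, so that it reads the end of the coding sequence.
Cited2 probe: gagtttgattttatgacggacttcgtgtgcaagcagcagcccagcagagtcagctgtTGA

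The promoters of Pik3ip1 and Sesn1, the members that differed most after E2, are shown from RefSeq on build GRCm38.p6, from 250 bases before to 50 after each start site. Of the 10 genes, 8 had a promoter in that table, 10 promoters in all. Capitals mark the forkhead core GTAAACA, searched on both strands. A forkhead variant (ATAAACA) was searched too, as was the palindromic estrogen response element, taken as the arm GGTCA, any 3 bases and the reverse complement of that arm. Its shorter form with 1 arm (AGGTCA) can overlap it. The Sesn1 promoters lie at chr10:41810324-41810623, plus strand, and chr10:41887189-41887488, plus strand, and that of Pik3ip1 at chr11:3330481-3330780, plus strand.
Sesn1 promoter 1: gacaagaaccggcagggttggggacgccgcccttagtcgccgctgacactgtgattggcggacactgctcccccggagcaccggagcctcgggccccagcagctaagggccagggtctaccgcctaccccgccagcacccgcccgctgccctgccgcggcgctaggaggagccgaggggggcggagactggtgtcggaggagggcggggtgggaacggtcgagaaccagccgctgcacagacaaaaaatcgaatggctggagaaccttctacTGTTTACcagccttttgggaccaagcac
Sesn1 promoter 2: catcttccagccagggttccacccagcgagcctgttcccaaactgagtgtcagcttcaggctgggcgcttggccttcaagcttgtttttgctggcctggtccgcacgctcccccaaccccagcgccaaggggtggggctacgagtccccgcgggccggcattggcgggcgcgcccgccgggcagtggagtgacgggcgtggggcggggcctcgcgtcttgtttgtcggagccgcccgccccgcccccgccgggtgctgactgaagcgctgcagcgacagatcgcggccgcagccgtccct
Pik3ip1 promoter: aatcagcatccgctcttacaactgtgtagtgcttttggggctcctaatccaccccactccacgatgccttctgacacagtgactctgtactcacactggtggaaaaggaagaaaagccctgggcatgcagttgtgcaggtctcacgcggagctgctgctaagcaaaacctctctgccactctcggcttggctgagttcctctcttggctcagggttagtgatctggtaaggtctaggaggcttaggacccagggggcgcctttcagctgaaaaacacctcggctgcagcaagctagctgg
Of the 10 promoters, 1 held GTAAACA, the first of Sesn1, 22 bases after the start site, and 3.65% of all 32851 promoters of this length held it. The forkhead variant was in 0 of the 10 and in 4.6% of all promoters. The estrogen response element was in 0 of the 10 and in 0.07% of all promoters, and its shorter form in 0 of the 10 and in 16.3%. Letters absent from this window do not say whether the factor binds the gene.

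Values below are log2 of a probe's processed signal over its array's 75th percentile, so that 0 is the level of that percentile. E2 changes are E2 minus PLB on this scale, with ± SE from a fit over all 16 arrays. Across the 25863 genes tested, 64.3% passed an adjusted p of 0.05 for E2 in Arg260 (33.6% higher and 30.7% lower) and 63.6% in WT (31.9% higher and 31.7% lower). In whole tissue, fewer cells of a type and less RNA per cell cannot be told apart.

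Pik3ip1, a membrane protein that inhibits PI3K and so keeps Akt low, had the largest fold difference of the 10 genes. Its levels were -2.65, -1.82, -1.86 and -2.04 in Arg260 E2 uteri, and 3.24, 3.40, 3.25 and 2.52 in Arg260 PLB uteri. They were -1.79, -1.84, -2.24 and -1.40 in WT E2 uteri, and 3.44, 3.19, 3.47 and 3.01 in WT PLB uteri. Every E2 array lay more than 4 log2 units below the lowest PLB array of its genotype, and the 2 genotypes overlapped in each treatment. Pik3ip1 was 36.6-fold lower after E2 in Arg260 (log2 change -5.19 ± 0.230) and 34.1-fold lower in WT (-5.09 ± 0.230). Of the 25863 genes tested, it had the 8th largest fall in Arg260 and the 14th largest in WT. A probe to another transcript of the gene, 8373 bases away on mm9, changed by -5.80 ± 0.266 in Arg260 and -5.43 ± 0.266 in WT, and it was well above background on 3 of 4 Arg260 E2 arrays.

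Sesn1 and Sesn3 are sestrins, which bind GATOR2 and thereby restrain mTORC1, the growth kinase downstream of Akt. Sesn1 stood at 0.20, 0.09, 0.27 and 0.05 in Arg260 E2 uteri, against 3.59, 3.61, 3.89 and 3.41 in Arg260 PLB uteri. In WT it stood at 0.12, 0.38, 0.05 and 0.27 after E2, against 3.66, 3.87, 3.67 and 3.52 after PLB. The E2 change was -3.47 ± 0.109 in both genotypes, 11.1-fold lower, and no E2 array came near a PLB array. Sesn3 stood at -1.30, -1.36, -1.40 and -1.51 in Arg260 E2 uteri, against 0.44, 0.53, 0.41 and 0.46 in Arg260 PLB uteri. It stood at -1.20, -0.96, -1.11 and -1.05 in WT E2 uteri, against 0.88, 0.03, 0.43 and 0.33 in WT PLB uteri. The Sesn3 change was -1.85 ± 0.132 in Arg260 and -1.49 ± 0.132 in WT, and every E2 array of either genotype lay below all PLB arrays.

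Cited2 binds CBP and p300 and in other tissues limits hypoxia-inducible transcription and keeps stem cells quiescent. Its levels were -0.81, -1.37, -1.17 and -0.84 in Arg260 E2 uteri, and 1.04, 1.28, 1.52 and 0.68 in Arg260 PLB uteri. They were -1.31, -1.40, -1.04 and -1.25 in WT E2 uteri, and 0.92, 1.16, 1.42 and 0.92 in WT PLB uteri. E2 and PLB arrays were again apart, by -2.18 ± 0.179 in Arg260 and -2.35 ± 0.179 in WT. The second Cited2 probe, 128 bases away on mm9, gave -2.28 ± 0.151 in Arg260 and -2.44 ± 0.151 in WT.

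**Figure D1:**
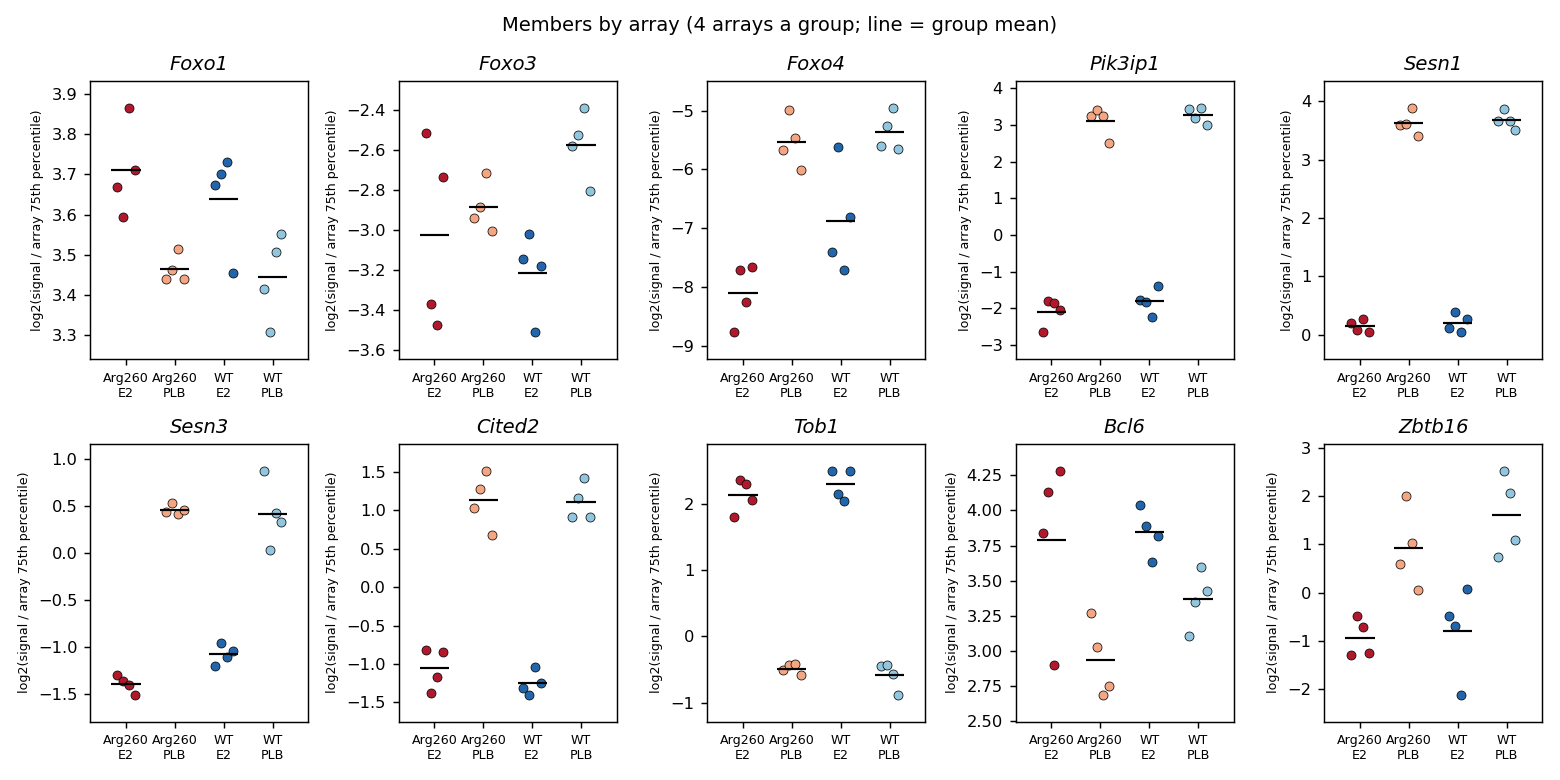
Level of each gene on each array as log2 of signal over the array's 75th percentile (y axis, its own range in each panel), by group (x axis), with 4 arrays a group as points and the group mean as a line. Pik3ip1, Sesn1, Sesn3 and Cited2 were lower on all E2 arrays than on any PLB array, Tob1 was higher on all of them, and Foxo1, Foxo3 and Bcl6 lay close together or overlapped.

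Zbtb16 (PLZF), a POZ zinc finger repressor known for keeping progenitor cells undivided, varied most within groups. It stood at -1.29, -0.50, -0.72 and -1.26 in Arg260 E2 uteri, against 0.60, 2.00, 1.02 and 0.05 in Arg260 PLB uteri. It stood at -0.48, -0.70, -2.12 and 0.08 in WT E2 uteri, against 0.74, 2.53, 2.07 and 1.1 in WT PLB uteri. No E2 array reached the PLB arrays of its genotype, although WT E2 replicate 4 overlapped the Arg260 PLB range. The change was -1.86 ± 0.510 in Arg260 and -2.42 ± 0.510 in WT. On slide 1 it was -2.20 ± 0.709 in Arg260 and -2.23 ± 0.709 in WT, and on slide 2 it was -1.53 ± 0.771 in Arg260 and -2.61 ± 0.771 in WT.

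Foxo4, the FoxO factor encoded on the X chromosome, was dim. Its 2 probes to the end of the transcript share 52 of their 60 bases and so are not separate measurements. For the brighter of them, Arg260 E2 uteri gave -8.76, -7.72, -8.25 and -7.66, and Arg260 PLB uteri gave -5.67, -4.98, -5.46 and -6.01. WT E2 uteri gave -7.40, -5.62, -7.71 and -6.80, and WT PLB uteri gave -5.61, -5.26, -4.96 and -5.66. This probe was well above background on 0 of 4 Arg260 E2 arrays, 3 of 4 Arg260 PLB arrays, 1 of 4 WT E2 arrays and 3 of 4 WT PLB arrays. The Arg260 PLB mean of this probe lay 1.55-fold above the dimmest signal still well above background on Arg260 E2 arrays. That is not a lower limit of the fall. A Foxo3 probe at -5.40 on Arg260 E2 replicate 2, higher than the Foxo4 mean of -5.53 in Arg260 PLB uteri, was not well above background. The fitted changes, -2.56 ± 0.392 in Arg260 and -1.51 ± 0.392 in WT, rest on signals near background. With normexp background correction and quantile normalisation they were -0.47 in Arg260 and -0.37 in WT. The overlapping probe gave -2.68 ± 0.385 in Arg260 and -2.17 ± 0.385 in WT, and a probe to another transcript gave -1.14 ± 0.296 in Arg260 and -1.37 ± 0.296 in WT.

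Foxo1 differed little, as did Foxo3 in Arg260. Foxo1 stood at 3.67, 3.59, 3.87 and 3.71 in Arg260 E2 uteri, against 3.44, 3.46, 3.51 and 3.44 in Arg260 PLB uteri. In WT it stood at 3.67, 3.70, 3.73 and 3.45 after E2, against 3.42, 3.31, 3.51 and 3.55 after PLB. The difference was 0.25 ± 0.0807 in Arg260 and 0.19 ± 0.0807 in WT, but its direction turned under quantile normalisation, to -0.18 in Arg260 and -0.17 in WT. Its second probe gave 0.15 ± 0.0873 in Arg260 and 0.20 ± 0.0873 in WT. On slide 2 the WT difference was 0.06 ± 0.145, against 0.32 ± 0.0927 on slide 1.

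The brighter Foxo3 probe, which the files assign to a cDNA clone and not to the RefSeq transcript, stood at -2.51, -3.37, -3.48 and -2.74 in Arg260 E2 uteri. It stood at -2.94, -2.88, -2.71 and -3.01 in Arg260 PLB uteri, so these groups overlapped. In WT it stood at -3.15, -3.02, -3.51 and -3.18 after E2, against -2.58, -2.53, -2.39 and -2.81 after PLB, with no overlap. The change was -0.14 ± 0.189 in Arg260 and -0.64 ± 0.189 in WT. The RefSeq probe, 61618 bases away on mm9, gave -0.20 ± 0.425 in Arg260 and 0.09 ± 0.425 in WT, so the probes did not give the same picture.

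Tob1, an anti-proliferative protein that recruits the CCR4-NOT deadenylase to mRNAs, was higher after E2. Its levels were 1.80, 2.36, 2.30 and 2.06 in Arg260 E2 uteri, and -0.52, -0.43, -0.42 and -0.58 in Arg260 PLB uteri. They were 2.50, 2.15, 2.04 and 2.50 in WT E2 uteri, and -0.45, -0.44, -0.56 and -0.88 in WT PLB uteri. All 8 E2 arrays lay above all 8 PLB arrays, with changes of 2.62 ± 0.143 in Arg260 (6.14-fold) and 2.88 ± 0.143 in WT (7.37-fold). Its slide values differed little, 2.56 ± 0.212 on slide 1 and 2.68 ± 0.212 on slide 2 in Arg260.

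Bcl6, a POZ zinc finger repressor that FoxO factors induce in lymphocytes, stood at 3.84, 4.13, 2.90 and 4.28 in Arg260 E2 uteri, against 3.27, 3.03, 2.69 and 2.75 in Arg260 PLB uteri. In WT it stood at 4.04, 3.89, 3.63 and 3.82 after E2, against 3.11, 3.35, 3.60 and 3.43 after PLB. Arg260 E2 replicate 3 lay within the PLB range of its genotype, and the WT groups came close without overlapping. The change was 0.85 ± 0.242 in Arg260 and 0.48 ± 0.242 in WT. Within slide 1 it was 0.84 ± 0.161 in Arg260 and 0.74 ± 0.161 in WT, and within slide 2 it was 0.87 ± 0.420 in Arg260 and 0.21 ± 0.420 in WT.

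**Figure D2:**
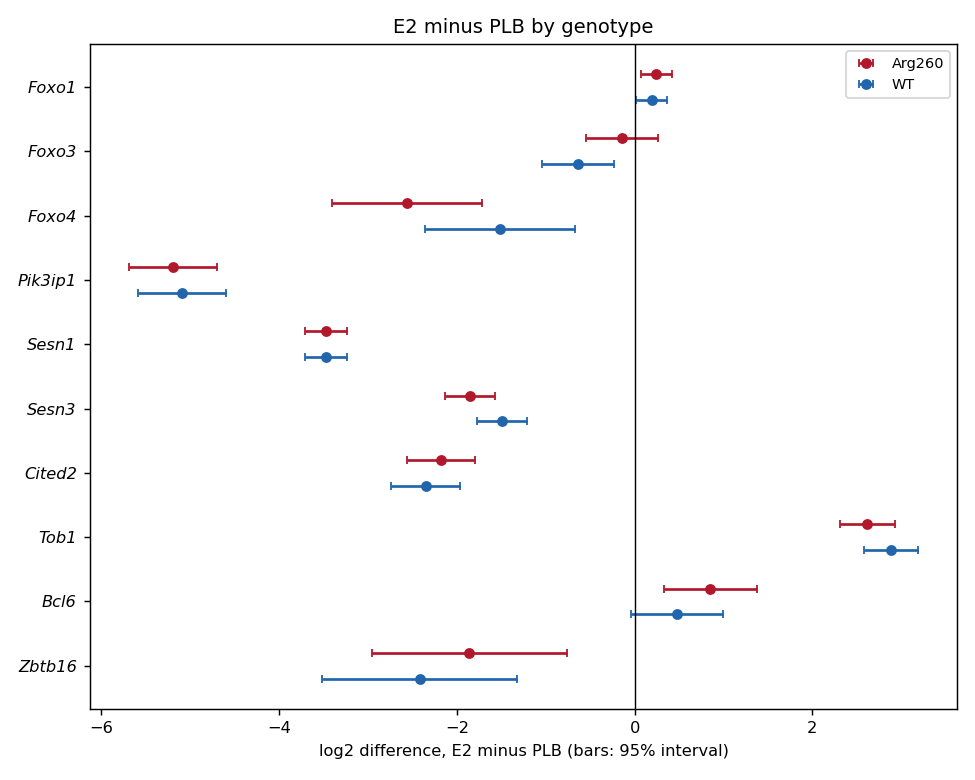
E2 minus PLB in log2 units (x axis) for each gene (y axis) in Arg260 (red) and WT (blue), as points with 95% intervals from the fit over 16 arrays. The changes run between -5.19 and 2.62 in Arg260 and between -5.09 and 2.88 in WT, with Pik3ip1 lowest and Tob1 highest in both. The Foxo1 values, 0.25 in Arg260 and 0.19 in WT, turn below 0 under quantile normalisation.

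The median E2 change of the 10 genes was -1.857 in Arg260 and -1.503 in WT, beside 0.02 in Arg260 and -0.02 in WT over all genes tested. E2 and PLB arrays did not overlap for 8 of 10 genes in Arg260 (all but Foxo3 and Bcl6) and for 8 of 10 in WT (all but Foxo1 and Foxo4). Of all genes tested, 58.7% did not overlap in Arg260 and 59.1% in WT, and nothing is read from the count because E2 changes helped to choose the genes.

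Sesn1 and Foxo3 lie on chromosome 10 with 1 protein-coding gene, Armc2, between them in the GRCm38.p6 gene order, and the E2 values of the neighbours, chosen after their values were seen, were unlike across this stretch. Armc2 fell by 2.88 ± 0.132 in both genotypes. Cep57l1, on the far side of Sesn1, fell by 2.14 ± 0.141 in Arg260 and fell by 2.16 ± 0.141 in WT. On the far side of Foxo3, Afg1l fell by 0.53 ± 0.0779 in Arg260 and fell by 0.40 ± 0.0779 in WT. Because of how these neighbours were chosen, their changes are given with no test. Of all genes tested, 30.7% were called lower with E2 in Arg260 and 31.7% in WT.

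The genotype comparisons were not used to choose the genes and were tested. For the difference of the E2 response between Arg260 and WT, 0 of 10 genes passed (0% of all genes called), all with an adjusted p of 1 by limma, and 0 of 10 had an unadjusted p under 0.05. Over all genes, 961 (3.72%) had an unadjusted p under 0.05. The differences ran between -1.05 for Foxo4 and 0.56 for Zbtb16, and the other Foxo4 probes gave -0.51 and 0.23. For Sesn1 the difference was 0.00 with a 95% interval between -0.33 and 0.33, and for Pik3ip1 it was -0.10 with an interval between -0.80 and 0.60. The interval for Tob1 lay between -0.70 and 0.17 and that for Cited2 between -0.37 and 0.72. The widest, for Zbtb16, lay between -0.99 and 2.10, so a fall weaker by several fold in Arg260 than in WT is not excluded for that gene.

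After PLB, 0 of 10 genes differed between Arg260 and WT (0% of all genes called, and 638 genes with an unadjusted p under 0.05). None (0) of the 10 had an unadjusted p under 0.05 by limma, and Arg260 and WT arrays overlapped for all 10 (0 of 10 apart, beside 1.66% of all genes tested). The differences ran between -0.69 for Zbtb16 (95% interval -1.79 to 0.40) and 0.10 for Tob1 (-0.21 to 0.40). Bcl6 averaged 2.93 ± 0.268 in Arg260 PLB uteri and 3.37 ± 0.204 in WT PLB uteri (SD, n = 4 each), a difference of -0.44 with an interval between -0.96 and 0.08.

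After E2, 0 of 10 genes passed the test between Arg260 and WT (0% of all genes called, and 1900 genes, 7.35%, with an unadjusted p under 0.05). Unadjusted p-values under 0.05 were found for Foxo4 and Sesn3. Foxo4 averaged -8.10 ± 0.519 in Arg260 E2 uteri and -6.88 ± 0.922 in WT E2 uteri (SD, n = 4 each), a difference of -1.21 ± 0.392 (SE, limma, adjusted p = 0.535). It was well above background on 0 of the 4 Arg260 and 1 of the 4 WT arrays compared there. On the overlapping probe the difference was -0.53 (95% interval -1.36 to 0.30), and on the probe to another transcript it was 0.13 (-0.51 to 0.76), so the direction was not shared by all 3 probes. Sesn3 averaged -1.39 ± 0.0886 in Arg260 E2 uteri and -1.08 ± 0.101 in WT E2 uteri (SD, n = 4 each), a difference of -0.32 ± 0.132 (SE, limma, adjusted p = 0.646). Sesn3 was the 1 gene of the 10 whose Arg260 and WT arrays did not overlap after E2, with every Arg260 array lower, and 3.95% of all genes tested did not overlap there.

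**Figure D3:**
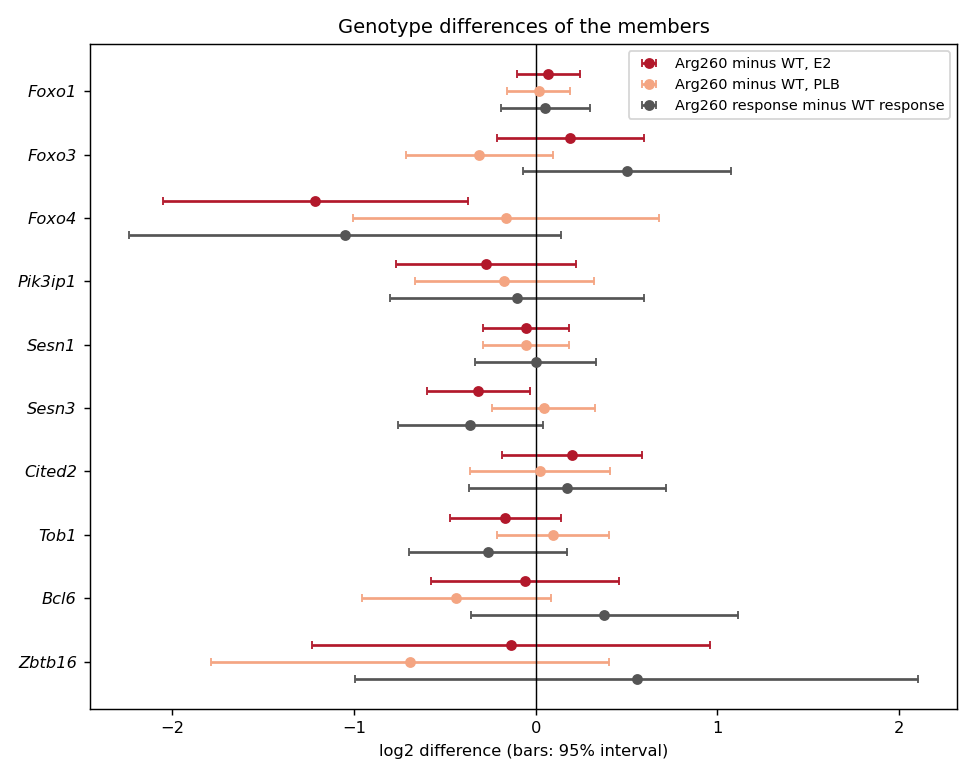
Differences between genotypes in log2 units (x axis) for each gene (y axis): Arg260 minus WT after E2, Arg260 minus WT after PLB, and the Arg260 response minus the WT response, as points with 95% intervals. Intervals that leave out 0 are those of Foxo4 (-2.05 to -0.37) and Sesn3 (-0.60 to -0.03) after E2, and neither passed the test after adjustment over all genes. The Foxo4 probe drawn was well above background on 0 of 4 Arg260 E2 and 1 of 4 WT E2 arrays, so its interval after E2 compares signals near background. The other 2 Foxo4 probes, not drawn, have intervals that hold 0.

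Deviations from the group means do not use the E2 change. Over 45 pairs of the genes and 16 arrays, the correlation of these deviations ran between -0.386 and 0.771 with a median of 0.092. Pik3ip1 and Tob1, which E2 moved in opposite directions, varied together within groups (Pearson's r = 0.771, permutation p = 0.00033, adjusted 0.0148 over the 45 pairs, Spearman's rho = 0.697, permutation p = 0.00415, adjusted 0.165). It was 0.756 without the 2 arrays farthest from the median of Pik3ip1, 0.735 on slide 1 and 0.813 on slide 2. Of the 45 pairs, 3 had a permutation p under 0.05 for r and 1 passed the adjustment. Points share an array, its scaling and its tissue makeup.

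**Figure D4:**
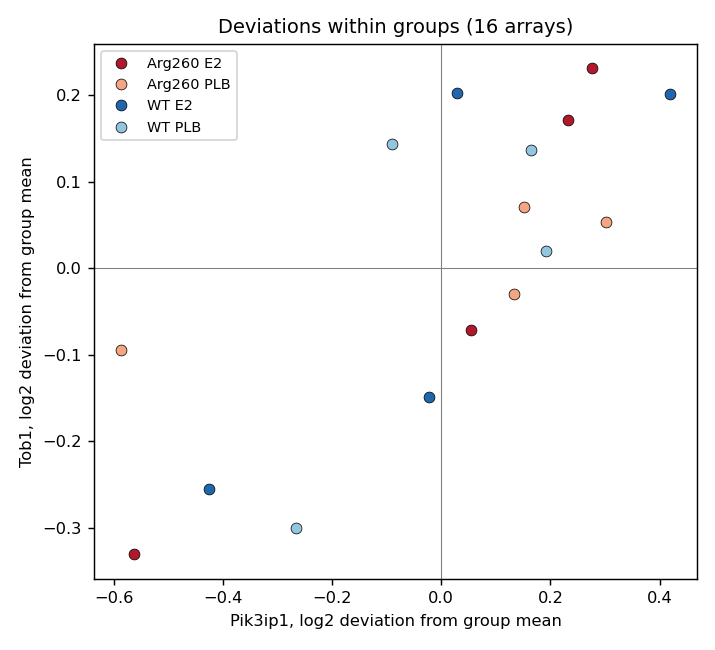
Deviation of Tob1 from its group mean (y axis, log2 units) against that of Pik3ip1 (x axis, log2 units) for 16 arrays, coloured by group. The deviations correlate (r = 0.771), with exceptions such as WT PLB replicate 2, which lies below its group mean for Pik3ip1 and above it for Tob1.

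Cell type markers were set against the same deviations. Of 90 correlations of the 10 genes with 9 marker lists within groups, 10 had a permutation p under 0.05 and 0 passed the adjustment. For the mean of the stromal markers r was -0.797 with Pik3ip1 (permutation p = 0.00127, adjusted 0.0513; rho = -0.724, permutation p = 0.00326, adjusted 0.139; r = -0.66 without 2 arrays). For Pik3ip1, r was -0.814 with epithelial markers (permutation p = 0.00225, adjusted 0.0513; rho = -0.656, permutation p = 0.0167, adjusted 0.188; r = -0.697 without 2 arrays). It was 0.731 with T and NK lymphocyte markers (permutation p = 0.00228, adjusted 0.0513; rho = 0.65, permutation p = 0.0124, adjusted 0.163; r = 0.564 without 2 arrays). With smooth muscle markers it was -0.701 (permutation p = 0.00512, adjusted 0.0723; rho = -0.732, permutation p = 0.0043, adjusted 0.139; r = -0.683 without 2 arrays). For Tob1 and the stromal markers it was -0.773 (permutation p = 0.001, adjusted 0.0513; rho = -0.753, permutation p = 0.00463, adjusted 0.139; r = -0.764 without 2 arrays). Stromal marker means ranged between 3.75 and 4.19 in Arg260 E2 uteri, 4.62 and 5.31 in Arg260 PLB uteri, 3.56 and 4.52 in WT E2 uteri, and 4.41 and 5.18 in WT PLB uteri. With E2, 6 of 10 stromal markers fell in each genotype. Of the epithelial markers, 6 of 10 rose and 1 fell in Arg260, and 3 rose and 2 fell in WT. Adipocyte markers ranged widely, between -1.93 and 0.83 in Arg260 E2 uteri, 0.29 and 1.69 in Arg260 PLB uteri, -3.96 and -0.16 in WT E2 uteri, and 0.66 and 2.51 in WT PLB uteri. Of these 8 markers, 2 fell with E2 in Arg260 and 7 in WT. Over all genes tested, 33.6% rose and 30.7% fell in Arg260, and 31.9% rose and 31.7% fell in WT. For the difference of the E2 response between genotypes, 0 of 8 adipocyte, 0 of 10 epithelial and 0 of 10 stromal markers passed. The part of these cell types in the E2 values was not tested.

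Genes whose pattern over the 16 arrays was most like that of Pik3ip1, by Pearson's r among 14644 genes well above background on all PLB arrays, were Abtb1 (0.998), Cngb1 (0.998), Slc25a27 (0.998), Gigyf1 (0.997) and Xpc (0.997). Since E2 sets most of this pattern, 1750 genes had an r over 0.95. Within groups the r with Pik3ip1 was 0.899 for Abtb1, 0.859 for Cngb1, 0.885 for Slc25a27, 0.923 for Gigyf1 and 0.817 for Xpc. The genes were picked by r over the same 16 arrays, so these values are not independent of that choice. Abtb1 changed by -3.54 in Arg260 and -3.59 in WT, and Gigyf1 by -1.56 in Arg260 and -1.48 in WT.

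Other genes of the pathways around these 10 were read from 8 lists of 200 genes, 199 of them tested. Of these 199, 92 rose and 67 fell with E2 in Arg260, and 88 rose and 69 fell in WT, so that 79.9% passed in Arg260 and 78.9% in WT, beside 64.3% of all genes in Arg260 and 63.6% in WT. For the genotype comparisons 0 of the 199 passed in any of the 3. The lists were chosen with earlier results of these data known, so their E2 counts are descriptions. They stand beside 33.6% of all genes higher and 30.7% lower in Arg260, and 31.9% higher and 31.7% lower in WT. Genes said below to have risen or fallen passed the limma test in the genotype named, at an adjusted p of 0.05 over all genes, and their values are log2 changes ± SE.

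Upstream of FoxO, PI3K, Akt and mTOR pathway genes moved in both directions: of 29 tested, 10 rose and 14 fell in Arg260, and 9 rose and 15 fell in WT (median change -0.28 in Arg260 and -0.35 in WT). Irs2, the adaptor that couples insulin and IGF1 receptors to PI3K, fell by 3.81 ± 0.203 in Arg260 and fell by 4.07 ± 0.203 in WT. Deptor, an inhibitor of mTOR, fell by 3.08 ± 0.200 in Arg260 and fell by 3.24 ± 0.200 in WT, with -1.41 in Arg260 and -1.61 in WT on its other probe. Akt1 rose by 1.70 ± 0.0894 in Arg260 and 1.64 ± 0.0894 in WT, and Sgk1, a kinase that also phosphorylates FoxO factors, rose by 1.78 ± 0.281 in Arg260 and 1.56 ± 0.281 in WT. Within slide 1 the WT call of Sgk1 was lost (adjusted p = 0.0852, limma). Among 22 modifiers and carriers of FoxO proteins, 12 rose and 2 fell in Arg260, and 13 rose and 2 fell in WT. Sfn, a 14-3-3 protein, rose by 2.59 ± 0.247 in Arg260 and 2.23 ± 0.247 in WT, and Prmt1, the arginine methyltransferase, rose by 1.70 ± 0.104 in Arg260 and 1.66 ± 0.104 in WT. The mitochondrial deacetylase Sirt3 fell by 1.502 ± 0.102 in Arg260 and fell by 1.508 ± 0.102 in WT. Sirt2 fell by 0.23 ± 0.0894 in Arg260 and fell by 0.35 ± 0.0894 in WT, and its Arg260 call did not hold. It was lost under median scaling (adjusted p = 0.359, limma), with no filter (0.0633) and within slide 1 (0.0796) and slide 2 (0.451). Leaving out any of 6 single Arg260 arrays (replicates 1, 2 and 4 of the E2 group, and 1, 2 and 3 of the PLB group) lost it too (adjusted p between 0.0587 and 0.117, limma). The WT call was lost within slide 1 (adjusted p = 0.168, limma).

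Genes known as FoxO targets also split: of 46 tested, 16 rose and 24 fell in Arg260, and 15 rose and 25 fell in WT, with median changes of -0.50 in Arg260 and -0.52 in WT. Irs2 is one of them. Cxcr4, a chemokine receptor, fell by 3.60 ± 0.424 in Arg260 and fell by 4.38 ± 0.424 in WT, and was well above background on 3 of 4 Arg260 E2 and 2 of 4 WT E2 arrays. Cdkn1a, the p21 inhibitor of cyclin-dependent kinases, rose by 3.94 ± 0.187 in Arg260 and 4.02 ± 0.187 in WT, with its probes between 0.93 and 3.94 in Arg260. Gadd45a, a stress and DNA damage gene, rose by 3.22 ± 0.190 in Arg260 and 3.16 ± 0.190 in WT. Of 31 quiescence and DREAM complex genes, which repress the cell cycle in resting cells, 10 rose and 13 fell in Arg260, and 10 rose and 14 fell in WT. Mxi1, an antagonist of Myc, was lower with E2 in both genotypes. Its PLB mean lay 4.23-fold in Arg260 and 4.14-fold in WT above the dimmest signal still well above background on E2 arrays. These are not strict lower limits of the fall, since a Foxo3 probe at -5.40 on Arg260 E2 replicate 2 was not well above background. On 0 of 4 E2 arrays in each genotype was Mxi1 itself well above background. It was kept through its PLB arrays, 4 of 4 in each genotype, so no p-value is given for it. Its call as lower is still counted in the FoxO target list, the quiescence list and the totals over all 199 list genes. Hbp1, a repressor of cell cycle genes, fell by 2.30 ± 0.119 in Arg260 and fell by 2.49 ± 0.119 in WT. Tfdp1, the partner of E2F factors, rose by 1.89 ± 0.115 in Arg260 and 1.83 ± 0.115 in WT, and Gas6, a growth-arrest gene and ligand of Axl kinases, rose by 1.79 ± 0.0832 in Arg260 and 1.83 ± 0.0832 in WT.

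Paralogs of the 10 genes are described next, beside 33.6% of all genes higher and 30.7% lower in Arg260, and 31.9% higher and 31.7% lower in WT. Of 13 tested, 9 rose and 2 fell in Arg260, and 10 rose and 2 fell in WT. Sesn2, the stress-induced sestrin, rose by 3.08 ± 0.231 in Arg260 and 3.33 ± 0.231 in WT, and Foxo6, the remaining FoxO factor, rose by 1.04 ± 0.149 in Arg260 and 1.37 ± 0.149 in WT. Of the relatives of Tob1, Btg2 rose by 1.52 ± 0.200 in Arg260 and 0.94 ± 0.200 in WT, and Btg3 by 1.44 ± 0.0923 in Arg260 and 1.36 ± 0.0923 in WT. Btg1 fell by 0.64 ± 0.129 in Arg260 and fell by 1.17 ± 0.129 in WT, while its other probe gave 0.59 in Arg260 and -0.07 in WT. Tob2 did not pass (-0.30 ± 0.158 in Arg260 and -0.19 ± 0.158 in WT), and did so as lower in both genotypes under quantile normalisation (adjusted p = 0.00759 in Arg260 and 0.0381 in WT, limma). Relatives of Bcl6 and Zbtb16 that rose were Bcl6b (0.69 ± 0.201 in Arg260 and 0.68 ± 0.201 in WT), Zbtb7a (0.87 ± 0.0834 in Arg260 and 0.96 ± 0.0834 in WT), Zbtb7b (0.63 ± 0.0853 in Arg260 and 0.68 ± 0.0853 in WT) and Zbtb32 (1.30 ± 0.225 in Arg260 and 1.49 ± 0.225 in WT). Zbtb20 fell by 0.94 ± 0.144 in Arg260 and fell by 0.70 ± 0.144 in WT. Of the Cited2 relatives, Cited4 rose by 1.03 ± 0.310 in Arg260 and 1.26 ± 0.310 in WT. Under quantile normalisation the Arg260 calls of Cited4 and Zbtb7b were lost (adjusted p = 0.069 and 0.0932, limma), and with the mean of all probes that of Btg1 was lost (adjusted p = 0.913, limma). Within slide 1, calls were lost for Bcl6b in Arg260 and for Cited4 and Zbtb20 in WT (adjusted p = 0.132, 0.0541 and 0.0944, limma). Within slide 2 they were lost for Bcl6b, Cited4 and Btg2 in WT (0.22, 0.0735 and 0.0948) and for Cited4 and Btg1 in Arg260 (0.272 and 0.0759). Cited1 gave 0.77 ± 0.893 in Arg260, with an adjusted p of 0.471 by limma. It rose by 2.17 ± 0.893 in WT (adjusted p = 0.0464, limma), where WT PLB replicate 2 was the lowest array, at -6.69, and 3 of 4 WT PLB arrays were well above background. Without that lowest array it was 0.84 in WT (adjusted p = 0.00624, limma), and the Arg260 change of 0.77 then passed as well (adjusted p = 0.00665, limma). The WT call was lost with no filter (0.0655), with a trended robust prior (0.0556) and within slide 1 (0.0937) and slide 2 (0.0709). Leaving out any single array outside the WT PLB group lost it too (adjusted p between 0.0544 and 0.0979, limma).

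Of 31 partners of the sestrins in the GATOR, Rag and AMPK complexes, 15 rose and 12 fell in Arg260, and 11 rose and 11 fell in WT. Sec13, a GATOR2 subunit, rose by 1.77 ± 0.113 in Arg260 and 1.71 ± 0.113 in WT, and Prkag2, an AMPK subunit, by 1.75 ± 0.107 in Arg260 and 1.64 ± 0.107 in WT. Castor2, which binds GATOR2 as the sestrins do, fell by 2.24 ± 0.142 in Arg260 and fell by 2.25 ± 0.142 in WT. Slc38a9, an arginine sensor of the lysosome, fell by 1.70 ± 0.158 in Arg260 and fell by 1.76 ± 0.158 in WT, and 1 of its probes did not fall in WT (0.20).

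Of 16 genes on a list made up mostly of corepressors of Bcl6 and Zbtb16, 10 rose and 4 fell in Arg260, and 10 rose and 3 fell in WT. Kctd5, on this list but not itself a corepressor, rose by 1.36 ± 0.0630 in Arg260 and 1.48 ± 0.0630 in WT. The deacetylase Hdac5 fell by 2.29 ± 0.175 in Arg260 and fell by 2.19 ± 0.175 in WT. Mta3, a subunit of the NuRD complex, fell by 0.42 ± 0.0898 in Arg260 and fell by 0.43 ± 0.0898 in WT, and its probes reached -1.29 in Arg260 and -1.27 in WT. Within slide 2 both Mta3 calls were lost (adjusted p = 0.0598 in Arg260 and 0.109 in WT, limma). Of 18 CCR4-NOT and related deadenylation genes, 10 rose and 3 fell in Arg260, and 10 rose and 4 fell in WT. Pabpc4, a poly(A)-binding protein, rose by 2.09 ± 0.0907 in Arg260 and 2.04 ± 0.0907 in WT, and Cnot11 by 1.29 ± 0.0903 in Arg260 and 1.17 ± 0.0903 in WT, with 0.06 in Arg260 and 0.20 in WT on its other probe. Cpeb1, a regulator of poly(A) tails, fell by 1.27 ± 0.215 in Arg260 and fell by 1.28 ± 0.215 in WT, and Pan2, a deadenylase subunit, fell by 0.43 ± 0.102 in Arg260 and fell by 0.71 ± 0.102 in WT. Within slide 2 the Arg260 call of Pan2 was lost (adjusted p = 0.104, limma).

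**Figure D5:**
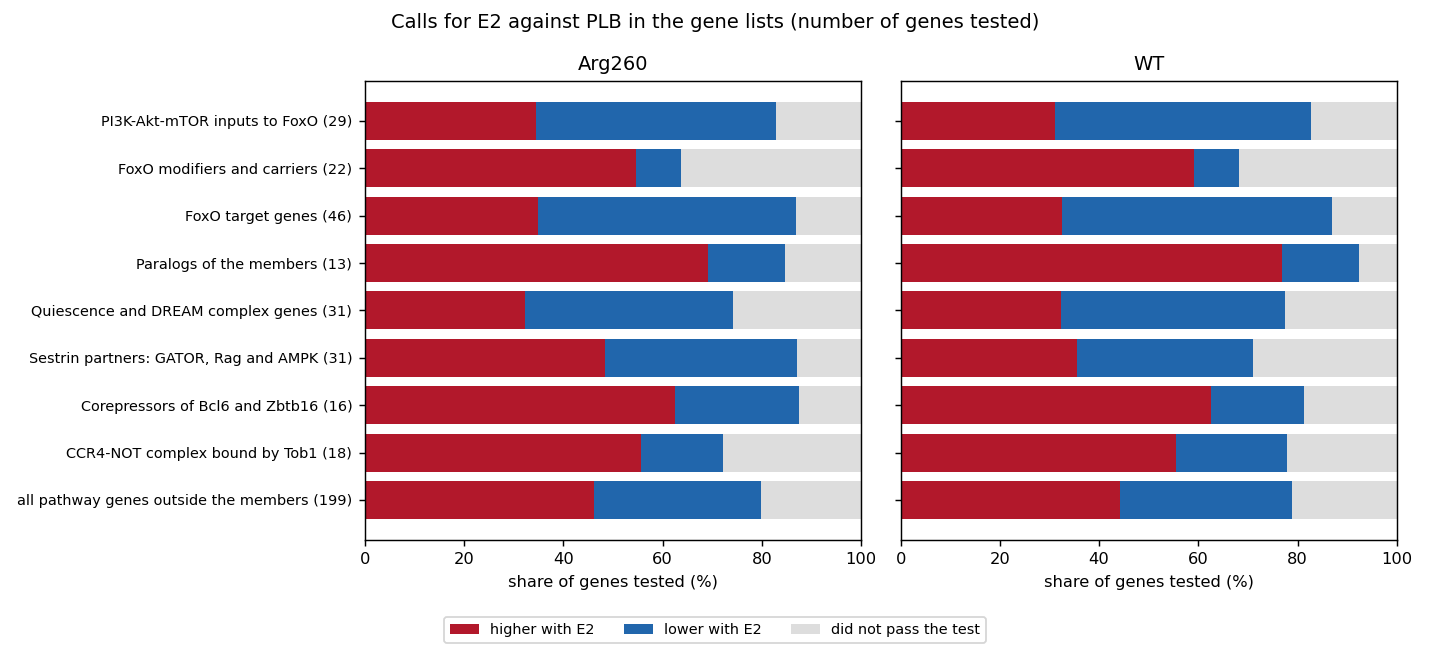
Share of the genes tested in each list (x axis, percent) that were called higher with E2 (red), lower (blue) or did not pass (grey), in Arg260 (left) and WT (right), with the number of genes tested in brackets after each list (y axis). Of paralogs and FoxO modifiers, 9 of 13 and 12 of 22 were called higher in Arg260, and 10 of 13 and 13 of 22 in WT. Of all genes tested, 33.6% were called higher in Arg260 and 31.9% in WT. The lower calls of the FoxO target and quiescence lists include Mxi1, which was not well above background on any E2 array.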

How the data were processed

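Total RNA of 16 mouse uteri (200 ng each) was labelled with Cy3 and hybridised to 1 array per sample, on 2 slides of 8, with 2 arrays of every group on each slide. The deposited scanner files give an intensity for each spot; the authors' scans were read by Agilent Feature Extraction (version 10.10.1.1 in the submitters' processing notes). The processed signal is background-subtracted, per the file headers. The deposited series table holds log2 values, for which the submitters' processing notes name limma; how it was background-corrected and filtered is not given in the sources used here. It served as an alternative only.

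Each array's processed signals were divided by their 75th percentile (922 to 1296 intensity units) and taken to log2. Control spots and outlier spots were left out, and spots of 1 probe averaged. The 38683 probes well above background on at least 4 of 16 arrays were kept. The probe with the highest mean stood for a gene, which gave 25863 genes. Names were updated through a GRCm38.p6 table (27235 probes by accession, 3581 by symbol, 565 by synonym; 24300 kept the file's name). Probe positions are on mm9.

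Group means were fitted by lmFit and eBayes of limma 3.58.1 under R 4.3.3 (residual df 12, two-sided, Benjamini-Hochberg over all genes, called at 0.05), and the fit was tested on simulated data. Correlations used 100000 permutations of arrays within groups, two-sided. The members, the lists and the tests were chosen with earlier results of these data known. Named were all members with every probe, Esr1 and Pgr, of each list the 2 genes with the highest and the 2 with the lowest change in WT among those called the same way in both genotypes, all paralogs, and the 5 genes most like Pik3ip1. A gene that this rule names is not reported here. Alternatives covered background correction, scaling, filter, choice of probe, slide, replicate number and each replicate left out. Replicate numbers were not taken to pair samples.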

Additional observations from a re-analysis of the deposited data

Results flagged for a closer look

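Of 64 sets of 4 arrays (16 probes in 4 groups), 2 held an array far from the others, and chance gives about 1 in 20. On the second Foxo1 probe, WT PLB replicate 1 stood at 2.91, with the nearest of the other arrays at 2.71. On the Foxo4 probe to another transcript, Arg260 E2 replicate 1 stood at -6.24, with the nearest of the others at -7.53 and the farthest at -7.66. Neither probe was the one that stood for its gene in the tests.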

How the results depend on the processing

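In each of the 29 alternatives, 0 of the 10 genes (0 of 9 where probes had to be well above background on all 16 arrays, which left out Foxo4) passed in the difference of the E2 response, in Arg260 against WT after PLB and in Arg260 against WT after E2. The count of pathway genes called for E2 stayed within 1.5 times, with 89 higher and 65 lower in Arg260, and 86 higher and 67 lower in WT, without Arg260 PLB replicate 3 and WT PLB replicate 2, an alternative chosen after seeing the data. With each replicate left out in turn, these counts ranged from 87 to 94 higher and 63 to 68 lower in Arg260, and from 84 to 90 higher and 64 to 71 lower in WT. The change of Foxo1 turned negative in Arg260 and WT with normexp and quantile normalisation (-0.181 in Arg260 and -0.169 in WT), quantile normalisation (-0.184 in Arg260 and -0.17 in WT) and the series table (-0.182 in Arg260 and -0.19 in WT); the cause was not tested. Median scaling moved the median change of all genes to 0.153 in Arg260 and 0.123 in WT, beside 0.017 in Arg260 and -0.024 in WT under the 75th percentile. Deviations of arrays with the same replicate number correlated between -0.108 and 0.258, and those of different numbers between -0.283 and 0.298. Of the same-number pairs 3 of 24 were over 0.1, beside 7 of 72 pairs of different numbers, and the samples were not treated as paired. However, 8 of 16 arrays correlated best with their own number, a hint from the data and not the design. How many would do so by chance was not computed. With the replicate block, 92 pathway genes were higher and 67 lower in Arg260, and 89 higher and 68 lower in WT, and Cited1 in WT had an adjusted p of 0.0545 (limma). Signals near background limit what can be said of Foxo4.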
